A study of Homo sapiens with 8 samples.

Results

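The genes that encode collagens, laminins and the other proteins of the basement membrane were followed in HepG2 cells grown on flat plastic or on a porous membrane. Members were protein-coding genes chosen by symbol: every collagen chain (COL, number, A, number), every laminin alpha, beta and gamma chain, and 13 further genes, namely FN1, NID1, NID2, HSPG2, AGRN, SPARC, TNC, FBLN1, FBN1, GPC3, SDC1, SDC2 and SDC4. Of 38032 gene identifiers in the files, 69 were members. Of these, 36 had 10 or more counts in 2 or more libraries and were tested, among 13943 genes tested in all. HepG2 is an established line from a human hepatocellular carcinoma. The same pool of wild-type cells was grown for 8 days either on conventional culture plastic (2D-primed, 4 libraries) or on top of Alvetex Strata, an inert porous polystyrene membrane (3D-primed, 4 libraries), and polyadenylated RNA was sequenced in read pairs. The seeding density was higher on the membrane, so growth geometry and density cannot be told apart, and both cultures were freed with trypsin before use, so matrix left on the substrate was not measured. Estimated counts per library ranged from 21599630 to 25019499 in the 2D-primed group and from 22153063 to 27844077 in the 3D-primed group.

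Basement membranes are thin sheets of matrix that underlie epithelia. Laminins, trimers of an alpha, a beta and a gamma chain, polymerise at the cell surface, type IV collagens form a covalent network beside them, and nidogens and the heparan sulfate proteoglycans perlecan and agrin link the networks. The normal liver sinusoid lacks a continuous basement membrane and is rich in fibronectin, which hepatocytes secrete, whereas stellate cells are the main source of fibrillar collagen in fibrosis.

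Most of the matrix genes that were tested were lower in the 3D-primed cells. Of the 36 tested, 27 passed edgeR's quasi-likelihood test at an adjusted p of 0.05, beside 63.9% of all genes tested, so many calls are the rule in this comparison. The direction was less even: 21 members (58.3%) fell, beside 31.6% of all genes, and 6 (16.7%) rose, beside 32.4%. The 6 that rose were COL2A1, COL5A2, COL26A1, COL6A1, FBN1 and GPC3. The 2 groups of libraries did not overlap for 25 of the 36, beside 59.8% of all genes. The median log2 fold change (3D-primed over 2D-primed) of the 36 was -0.45, and that of all genes tested was 0.01. These counts include 9 scarce members that had 10 counts in fewer than 2 libraries of 1 group and so met the limit through the other (COL6A2, COL1A1, COL5A2, COL8A1, COL8A2, COL4A2, LAMA1, LAMB3 and LAMC3). The 24 with a mean of 5 CPM (counts scaled to a common library size) or more were therefore counted on their own: 19 passed, beside 71.3% of genes at that level, and of these 16 fell and 3 rose, beside 35.4% and 35.9%. At that level a fall of at least 2-fold was called in 3 members, beside 5.11% of genes, and a rise of at least 2-fold in 1, beside 3.03%.

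**Figure D1:**
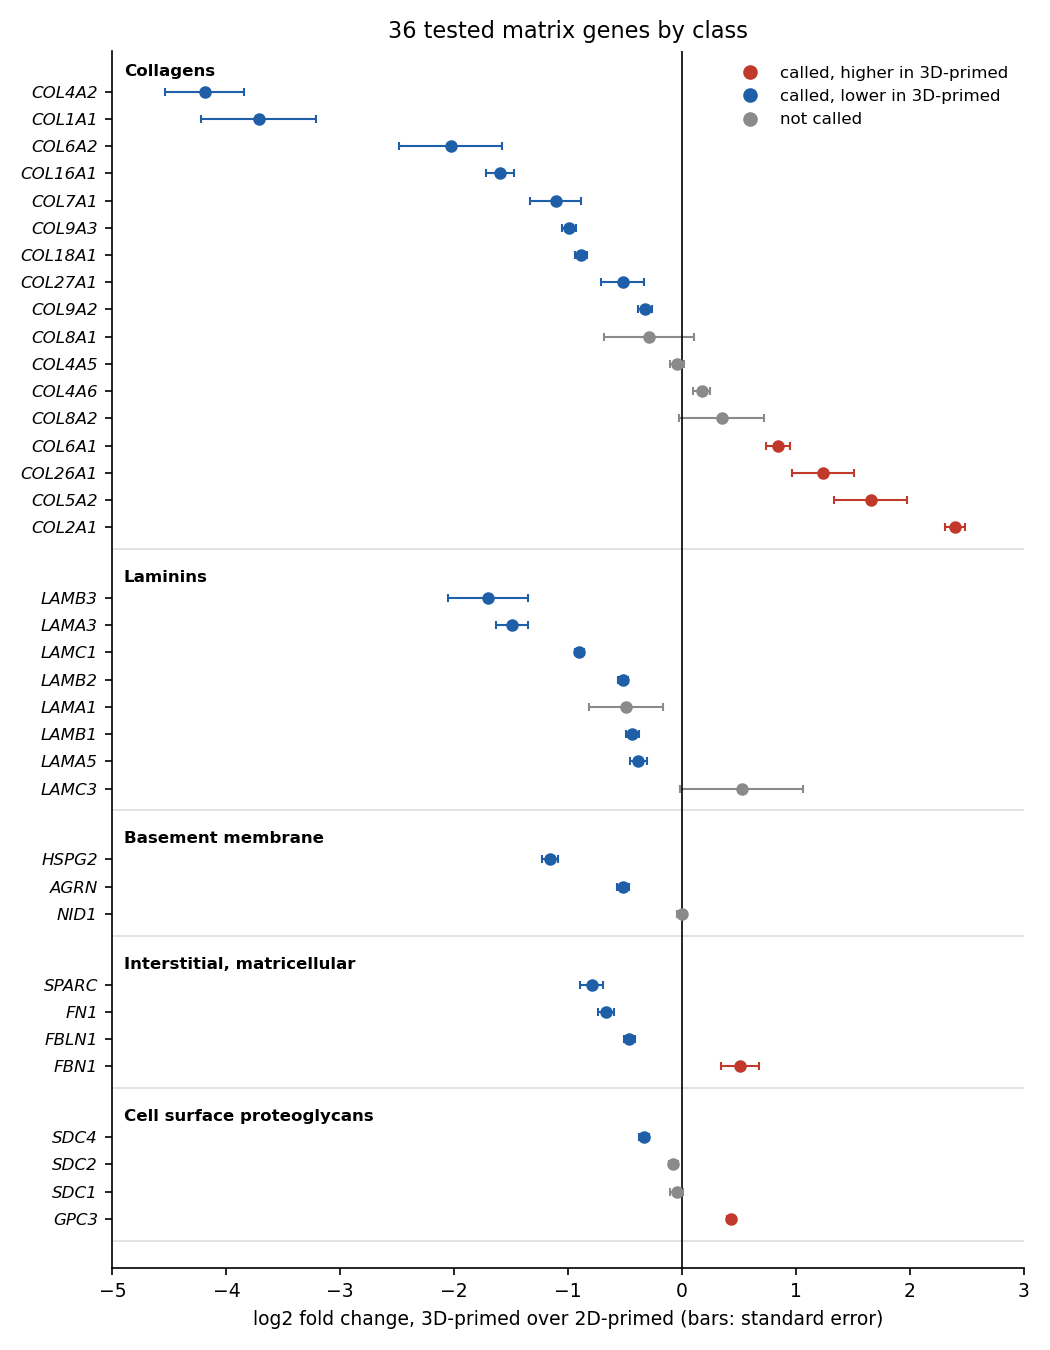
Log2 fold change of each of the 36 tested matrix genes, 3D-primed over 2D-primed, by class (points: edgeR estimate; bars: standard error; red and blue: called higher or lower; grey: not called). Of the 8 laminin chains, 6 are called lower and none higher (all genes tested: 31.6% and 32.4%), whereas collagens spread from -4.19 (COL4A2) to 2.39 (COL2A1). LAMB3, among the laminins called lower, and COL4A2 met the count limit through the 2D-primed group alone, where a called member had to be the higher.

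The 33 members that were not tested were close to silent. Of these, 6 had no count in any library (COL6A6, COL22A1, COL11A1, COL11A2, COL13A1 and TNC) and a further 19 had 10 or fewer counts in all 8 libraries together. The highest count of any untested member in any library was 10. Just inside the limit was COL8A2, with 25 counts over the 2D-primed and 35 over the 3D-primed libraries. Of the tested members, 4 had 10 counts in no library of 1 group (COL1A1, COL8A2, COL4A2 and LAMB3), so they were tested only through the other group, where a called member had to be the higher. All 4 transmembrane collagens and 27 of the 44 collagens went untested.

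Of the 6 type IV collagens, the network formers of the basement membrane, 3 met the count limit: COL4A5 and COL4A6 were not called, and COL4A2, which met it through the 2D-primed libraries alone, is described without a test. COL4A1 and COL4A2 encode the ubiquitous chains of this network and lie head to head on chromosome 13. COL4A1 had 2 counts over the 8 libraries and was not tested. COL4A2 (ENSG00000134871, GRCh38 chromosome 13, 110305812 to 110513209) stood at 2.43, 2.25, 1.87 and 1.65 CPM in 2D-primed replicates 1 to 4 and at 0.189, 0.0443, 0.0717 and 0.119 CPM in 3D-primed replicates 1 to 4. Every 2D-primed library was above every 3D-primed one. The fitted log2 fold change was -4.19 (standard error, SE, 0.345). In counts this was 190 against 11, a depth-scaled ratio of 18.9 with a 95% exact interval of 10.3 to 38.6 that covers counting error only, and the gene was scarce in both groups. The stretch shown here was chosen because it separates genes of such different counts. It runs from the annotated start of COL4A1 toward the RefSeq start of COL4A2 and holds no annotated exon. It lies inside the annotated span of COL4A2, since the spans of both genes overlap in GENCODE. It is chr13:110307158-110307257 (GRCh38.p14, plus strand, read 5′ to 3′ toward COL4A2). Capitals mark a CCAAT box and a GGGCGG box, the motif bound by SP1.
COL4A2: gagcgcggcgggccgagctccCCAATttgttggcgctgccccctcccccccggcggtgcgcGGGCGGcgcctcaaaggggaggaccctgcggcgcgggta

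COL4A5 and COL4A6, the pair of X-linked type IV chains, are also head to head, 340 bases apart. COL4A5 (ENSG00000188153, chromosome X, 108439838 to 108697545) was at 64.6, 65.2, 58.0 and 60.9 CPM in the 2D-primed libraries and at 58.8, 55.9, 59.1 and 66.7 CPM in the 3D-primed libraries. The groups overlapped and the difference was within their spread (log2 fold change -0.05, SE 0.0602, edgeR adjusted p = 0.52). COL4A6 (ENSG00000197565, chromosome X, 108155607 to 108439497) gave 14.8, 14.5, 15.1 and 13.4 CPM against 16.0, 17.3, 14.4 and 17.6 CPM. One 3D-primed library, replicate 3, lay within the 2D-primed range, and the log2 fold change of 0.17 (SE 0.0743) missed the threshold (edgeR adjusted p = 0.062). It passed when that library was left out (edgeR adjusted p = 0.013) and under 2 other scalings. Both genes are transcribed away from the stretch shown here, chrX:108439588-108439837 (GRCh38.p14, plus strand, toward COL4A5), which is printed for comparison with the one above. Capitals mark CCAAT, once on each strand, and the sequence holds no GGGCGG.
COL4A5: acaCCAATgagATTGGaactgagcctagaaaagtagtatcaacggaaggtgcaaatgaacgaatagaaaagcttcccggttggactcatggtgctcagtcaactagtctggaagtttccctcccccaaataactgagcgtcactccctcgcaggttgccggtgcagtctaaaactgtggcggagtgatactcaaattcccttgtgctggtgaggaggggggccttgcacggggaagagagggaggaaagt

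COL18A1 (ENSG00000182871, chromosome 21, 45405165 to 45513720) encodes the proteoglycan-type basement membrane collagen whose C-terminal fragment is endostatin. Its levels were 484, 518, 496 and 512 CPM in the 2D-primed libraries and 289, 250.4, 282 and 265 CPM in the 3D-primed libraries. There was no overlap, and the mean fell from 502 ± 15.1 to 271 ± 17.3 CPM (SD, n = 4, log2 fold change -0.89, SE 0.05, edgeR adjusted p = 2.3e-07). Its exons overlap those of SLC19A1 on the other strand, and the strand setting of the counting is not given in the sources used here. COL7A1 forms the anchoring fibrils that tie a basement membrane to the stroma. It went from 9.03, 8.26, 6.67 and 10.0 CPM to 2.94, 3.23, 6.06 and 3.45 CPM, a log2 change of -1.11 (SE 0.223, edgeR adjusted p = 0.0014), and 3D-primed replicate 3 stood above its group. The groups still did not overlap. The short-chain network collagens COL8A1 and COL8A2 were both under 1 CPM, overlapped between groups and were not called.

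Of the 8 laminin chains in the fit, 6 were called lower (75%, beside 31.6% of all genes tested) and none higher (beside 32.4%), and 1 of the 6, LAMB3, met the count limit through the 2D-primed group alone. LAMC1 (ENSG00000135862, chromosome 1, 183023420 to 183145592) encodes the gamma chain of most laminin trimers. Its level was 399, 402, 406 and 369 CPM in the 2D-primed libraries and 205, 209, 217 and 213 CPM in the 3D-primed libraries. These ranges were far apart, with a fall in the mean from 394 ± 16.8 to 211 ± 5.15 CPM (SD, n = 4, log2 fold change -0.90, SE 0.0415, edgeR adjusted p = 7.9e-08). LAMB1 (ENSG00000091136, chromosome 7, 107923799 to 108003213), a beta chain that pairs with it, was at 298, 317, 320.3 and 287 CPM against 205, 231, 223 and 245 CPM. The groups were again apart, but by less (log2 fold change -0.44, SE 0.0584, edgeR adjusted p = 8.7e-05). The stretches before both start sites are shown because these chains are built into the same trimers and both fell. They are chr1:183023170-183023419 (plus strand) and chr7:108003214-108003411 (minus strand), both in GRCh38.p14 and outside exons. Capitals mark GGGCGG or, where it lies on the other strand, CCGCCC.
LAMC1: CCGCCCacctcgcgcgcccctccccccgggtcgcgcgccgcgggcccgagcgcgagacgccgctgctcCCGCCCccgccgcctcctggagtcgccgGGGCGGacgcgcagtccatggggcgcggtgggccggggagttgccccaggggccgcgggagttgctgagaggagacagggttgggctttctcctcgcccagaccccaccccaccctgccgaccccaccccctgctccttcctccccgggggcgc
LAMB1: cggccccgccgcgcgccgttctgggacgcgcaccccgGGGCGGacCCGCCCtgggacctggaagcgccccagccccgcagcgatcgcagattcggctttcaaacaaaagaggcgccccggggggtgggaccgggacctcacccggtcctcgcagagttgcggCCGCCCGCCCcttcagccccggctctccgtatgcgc

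LAMB2 encodes the other widespread beta chain. It stood at 337, 358, 351 and 349 CPM in the 2D-primed libraries and at 255, 223, 252 and 243 CPM in the 3D-primed libraries, with no overlap (log2 fold change -0.52, SE 0.0471, edgeR adjusted p = 5.4e-06). LAMA5, the most abundant alpha chain here, had 329, 353, 287 and 290.5 CPM against 223, 241, 237 and 265 CPM, also without overlap (log2 fold change -0.38, SE 0.0752, edgeR adjusted p = 0.0012). The exons of LAMA5 and LAMB1 each overlap a gene on the other strand (ADRM1 and DLD). LAMA3 and LAMB3 are chains of the epithelial laminin of hemidesmosomes. LAMA3 went from 4.03, 5.23, 4.76 and 4.94 CPM to 1.66, 1.95, 1.51 and 1.63 CPM (log2 fold change -1.49, SE 0.137, edgeR adjusted p = 5.8e-06). LAMB3 was under 1 CPM throughout, with 52 counts against 17 (log2 fold change -1.70), and is given without a test since it met the count limit through the 2D-primed group. LAMA1, the alpha chain of the embryonic laminin, and LAMC3 were also under 1 CPM and not called. LAMC3 had its highest value, 0.675 CPM, in 2D-primed replicate 4. Without that library its log2 fold change was 1.30, given without a test since LAMC3 then met the count limit through the 3D-primed group alone.

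Of the linkers, both heparan sulfate proteoglycans fell and NID1 was not called. HSPG2 (ENSG00000142798, chromosome 1, 21822244 to 21937310) encodes perlecan. Its levels of 248, 263, 230.5 and 203 CPM in the 2D-primed libraries compared with 103, 105, 109 and 107 CPM in the 3D-primed libraries. The 3D-primed libraries lay close together and far below the others, with means of 236 ± 25.8 and 106 ± 2.77 CPM (SD, n = 4, log2 fold change -1.16, SE 0.0717, edgeR adjusted p = 4.3e-07). AGRN, which encodes agrin, went from 505, 579.7, 531 and 530.4 CPM to 377, 360.5, 401 and 361 CPM. Its groups did not overlap (log2 fold change -0.52, SE 0.0525, edgeR adjusted p = 1.2e-05). NID1, which encodes the nidogen that bridges laminin and type IV collagen, was at 374, 401, 378 and 375 CPM against 364, 381, 391.9 and 389 CPM. These ranges overlapped, and the log2 fold change was 0.00 to 2 decimals (SE 0.0401, edgeR adjusted p = 0.97). NID2 had 17 counts over all libraries and was not tested. The stretch before the start of HSPG2, chr1:21937311-21937560 (GRCh38.p14, minus strand), is shown for the member of this class with the largest fall, with GGGCGG in capitals. Exons of HSPG2 elsewhere overlap those of LDLRAD2 on the other strand.
HSPG2: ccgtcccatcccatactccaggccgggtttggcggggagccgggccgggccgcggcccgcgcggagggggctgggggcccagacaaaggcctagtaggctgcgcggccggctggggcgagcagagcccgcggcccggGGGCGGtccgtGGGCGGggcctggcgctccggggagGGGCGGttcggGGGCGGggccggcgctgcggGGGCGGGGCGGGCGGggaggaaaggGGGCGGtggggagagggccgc

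**Figure D2:**
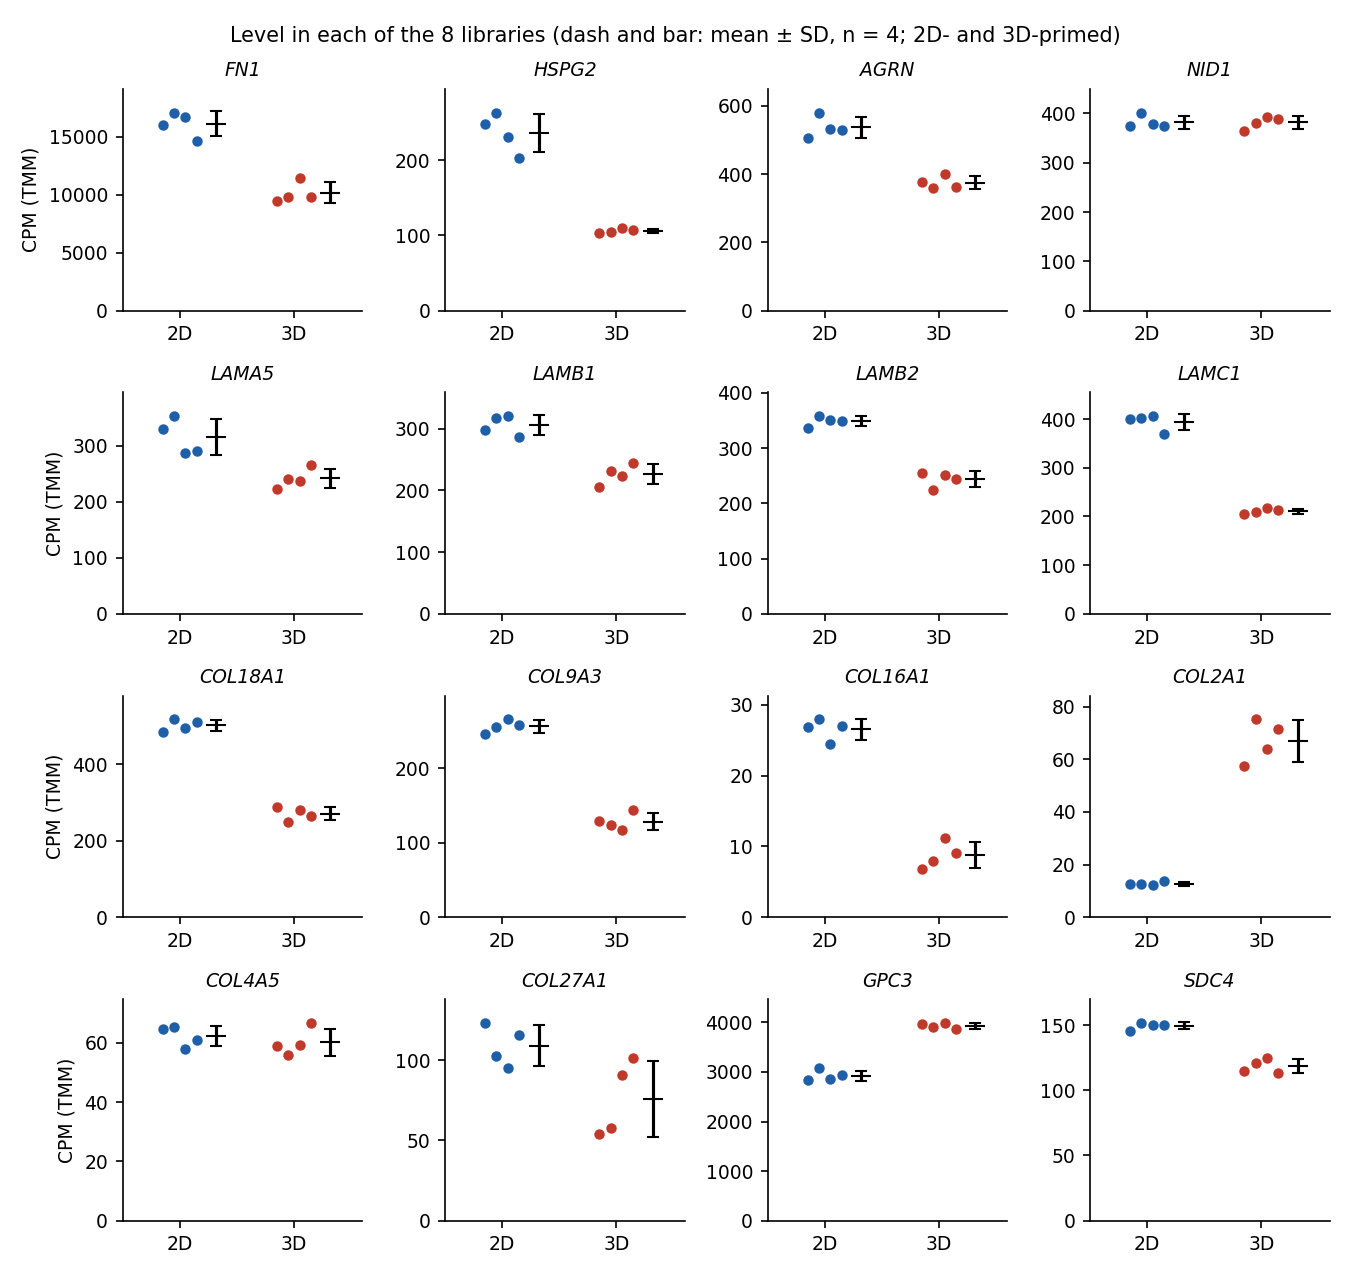
CPM (TMM-scaled) of 16 matrix genes in each of the 8 libraries (blue: 2D-primed; red: 3D-primed; dash and bar: mean ± SD, n = 4). The groups are apart in FN1, HSPG2, LAMC1, COL18A1 and COL2A1, and overlap in NID1, COL4A5 and COL27A1.

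Collagens of cartilage type and fibril-forming collagens moved in both directions. COL2A1 (ENSG00000139219, chromosome 12, 47972967 to 48004554), the fibrillar collagen of cartilage, rose the most of the 36. It was at 12.5, 12.7, 12.1 and 13.7 CPM in the 2D-primed libraries and at 57.4, 75.1, 64.1 and 71.6 CPM in the 3D-primed libraries. Its means were 12.7 ± 0.684 and 67.1 ± 7.91 CPM (SD, n = 4), a 5.26-fold difference (log2 fold change 2.39, SE 0.0875, edgeR adjusted p = 2.4e-08). COL9A3 and COL9A2 encode chains of type IX collagen, which coats type II fibrils in cartilage, and both went the other way. COL9A3 fell from 246, 255, 265 and 258 CPM to 129, 123, 117 and 144 CPM (log2 fold change -1.0, SE 0.0618, edgeR adjusted p = 4.3e-07). COL9A2 fell from 26.3, 23.4, 24.3 and 24.0 CPM to 18.8, 17.9, 21.5 and 19.9 CPM (log2 fold change -0.32, SE 0.0654, edgeR adjusted p = 0.0014). Neither gene had overlapping groups, and COL9A3 shares exon positions with TCFL5 on the other strand. The third chain, COL9A1, had 1 count and was not tested.

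The other fibrillar collagens were near the limit of detection or variable. COL1A1, which encodes a chain of the main fibrillar collagen of scar, was at 1.05, 1.21, 0.936 and 0.675 CPM in the 2D-primed libraries and at 0.113, 0.0886, 0 and 0.0794 CPM in the 3D-primed libraries. This was 90 counts against 7, a depth-scaled ratio of 14.1 (95% exact interval 6.57 to 36.05, counting error only), and a fitted log2 fold change (3D-primed over 2D-primed) of -3.72, given without a test since COL1A1 met the count limit through the 2D-primed group. COL5A2, a regulatory chain of fibrils, had 27 counts against 94 (log2 fold change 1.66), also without a test, since it met the limit through the 3D-primed group. COL27A1, a fibrillar collagen, had 123, 103, 95 and 115 CPM against 54.0, 57.7, 90.5 and 101 CPM. Replicates 1 and 2 of the 3D-primed group were low, and replicate 4 was inside the 2D-primed range. COL27A1 passed the test (log2 fold change -0.52, SE 0.188, edgeR adjusted p = 0.032), but not without 2D-primed replicate 1 or 4 or 3D-primed replicate 1 or 2, where its adjusted p ran from 0.070 to 0.082.

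Of the remaining collagens, COL16A1, a fibril-associated collagen, fell from 26.9, 27.9, 24.5 and 27.0 CPM to 6.87, 7.93, 11.1 and 9.01 CPM, a 3.03-fold difference without overlap (log2 fold change -1.60, SE 0.124, edgeR adjusted p = 1.8e-06). Type VI collagen forms beaded filaments around cells from chains that include those of COL6A1 and COL6A2. COL6A1 rose from 5.77, 5.96, 5.66 and 5.49 CPM to 8.64, 11.5, 11.4 and 9.45 CPM (log2 fold change 0.84, SE 0.104, edgeR adjusted p = 4.9e-05). COL6A2, which follows it on chromosome 21 after 93061 bases, had 83 counts against 22 (log2 fold change -2.03). COL6A2 was under 1 CPM in every library and is given without a test, since it met the limit through the 2D-primed group, with 10 counts in 1 of the 4 3D-primed libraries. COL26A1 rose from 46 to 119 counts (log2 fold change 1.24, edgeR adjusted p = 0.0025).

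Fibronectin took most of the counts of the matrix genes in both groups. FN1 (ENSG00000115414, chromosome 2, 215360440 to 215436073), the plasma and cell-surface glycoprotein that integrins bind, was at 16060, 17085, 16736 and 14627 CPM in the 2D-primed libraries and at 9447, 9839, 11483 and 9848 CPM in the 3D-primed libraries. The ranges were clearly separated, and the log2 fold change was -0.67 (SE 0.0666, edgeR adjusted p = 1.0e-05). Its share of the summed CPM of the 69 members was 68.3% in the 2D-primed and 58.4% in the 3D-primed group. The sequence before its start, chr2:215436074-215436252 (GRCh38.p14, minus strand), is shown for the member with the most counts, with CCAAT and GGGCGG in capitals.
FN1: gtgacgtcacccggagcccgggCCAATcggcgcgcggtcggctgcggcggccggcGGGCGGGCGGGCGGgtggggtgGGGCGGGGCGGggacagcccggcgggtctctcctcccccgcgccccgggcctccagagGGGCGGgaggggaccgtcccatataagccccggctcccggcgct

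SPARC and FBLN1 also fell, and FBN1 rose. SPARC, a matricellular protein that binds collagen, went from 74.6, 74.3, 71.2 and 71.4 CPM to 45.3, 41.6, 32.5 and 48.8 CPM (log2 fold change -0.79, SE 0.101, edgeR adjusted p = 5.9e-05). FBLN1, the basement membrane and elastic fibre protein fibulin-1, went from 191, 197, 209 and 202 CPM to 153, 142, 136 and 149.7 CPM (log2 fold change -0.46, SE 0.0475, edgeR adjusted p = 1.3e-05). Neither gene had overlapping groups. FBN1, which encodes the microfibril protein fibrillin-1, was at 2.25, 2.12, 2.16 and 2.28 CPM against 2.23, 3.59, 3.23 and 3.49 CPM. Replicate 1 of the 3D-primed group lay within the 2D-primed range, and the rise (log2 fold change 0.51, SE 0.166, edgeR adjusted p = 0.021) missed the threshold without 3D-primed replicate 2 or 4 (adjusted p of 0.063 and 0.057).

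The cell surface proteoglycans, which carry heparan sulfate chains, were split. GPC3 (ENSG00000147257, chromosome X, 133535745 to 133987100), the glypican that marks hepatocellular carcinoma, rose from 2846, 3069, 2852 and 2929 CPM to 3976, 3909, 3990 and 3856 CPM. The groups were well apart (means 2924 ± 104 and 3933 ± 62.0 CPM, SD, n = 4, log2 fold change 0.43, SE 0.0350, edgeR adjusted p = 2.7e-06). SDC4, a syndecan of focal adhesions, fell from 145, 152, 150.5 and 150.1 CPM to 115, 121, 125 and 113 CPM (log2 fold change -0.33, SE 0.0405, edgeR adjusted p = 4.2e-05). SDC2 and SDC1 overlapped between groups and were not called. SDC2 was at 422, 444, 451 and 446 CPM against 431, 412, 427 and 402 CPM (log2 fold change -0.08, edgeR adjusted p = 0.11, DESeq2 adjusted p = 0.047). SDC1, the epithelial syndecan, was at 137, 142, 129 and 136 CPM against 138, 138, 117 and 134 CPM (log2 fold change -0.05, edgeR adjusted p = 0.52).

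Summed over the 69 members, matrix RNA took 2.36, 2.43, 2.37 and 2.18% of all counts in the 2D-primed libraries and 1.66, 1.73, 1.89 and 1.75% in the 3D-primed libraries. Most of that difference was fibronectin. Without FN1, the sum was 7478 ± 217 CPM in the 2D-primed and 7244 ± 81.3 CPM in the 3D-primed group (SD, n = 4), and the groups overlapped. The rise of GPC3 is included in that sum: without both genes it went from 4554 ± 122 to 3312 ± 72.5 CPM and the groups did not overlap. The 44 collagens together went from 1028 ± 17.0 to 666 ± 39.0 CPM, and the 12 laminin chains from 1370 ± 54.7 to 925 ± 33.2 CPM. In such bulk RNA, fewer cells that express a gene and less of its RNA per cell cannot be told apart.

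To compare levels between genes, CPM was divided by the length of 1 transcript per gene in kilobases. On that scale FN1 and GPC3 led both groups, at 1922 and 1290 CPM per kb in the 2D-primed and at 1210 and 1735 CPM per kb in the 3D-primed group. Their order on this scale was exchanged. In CPM, without the division, FN1 stayed above GPC3 in both groups. Mean CPM of FN1 and GPC3 were 16127 and 2924 in the 2D-primed and 10154 and 3933 in the 3D-primed group. The order thus rests on the division by length, and whether the deposited counts were already scaled for length is not given in the sources used here. Within each library, the ratio of FN1 to GPC3, per kb, was 1.52, 1.504, 1.59 and 1.35 in the 2D-primed group and 0.642, 0.680, 0.778 and 0.690 in the 3D-primed group. This ratio was chosen after the values were seen and was not tested. SDC2 came next (133 and 126 CPM per kb), followed in the 2D-primed group by COL9A3 (102) and COL18A1 (92.9), and in the 3D-primed group by NID1 (65.9). NID1 itself was at 66.0 CPM per kb in the 2D-primed group, so its own level hardly moved while its rank did. COL2A1 went from 2.52 to 13.3 CPM per kb and stayed below COL9A3 (51.4 CPM per kb in the 3D-primed group). HSPG2, whose transcript is long, was at 16.5 and 7.38 CPM per kb.

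**Figure D3:**
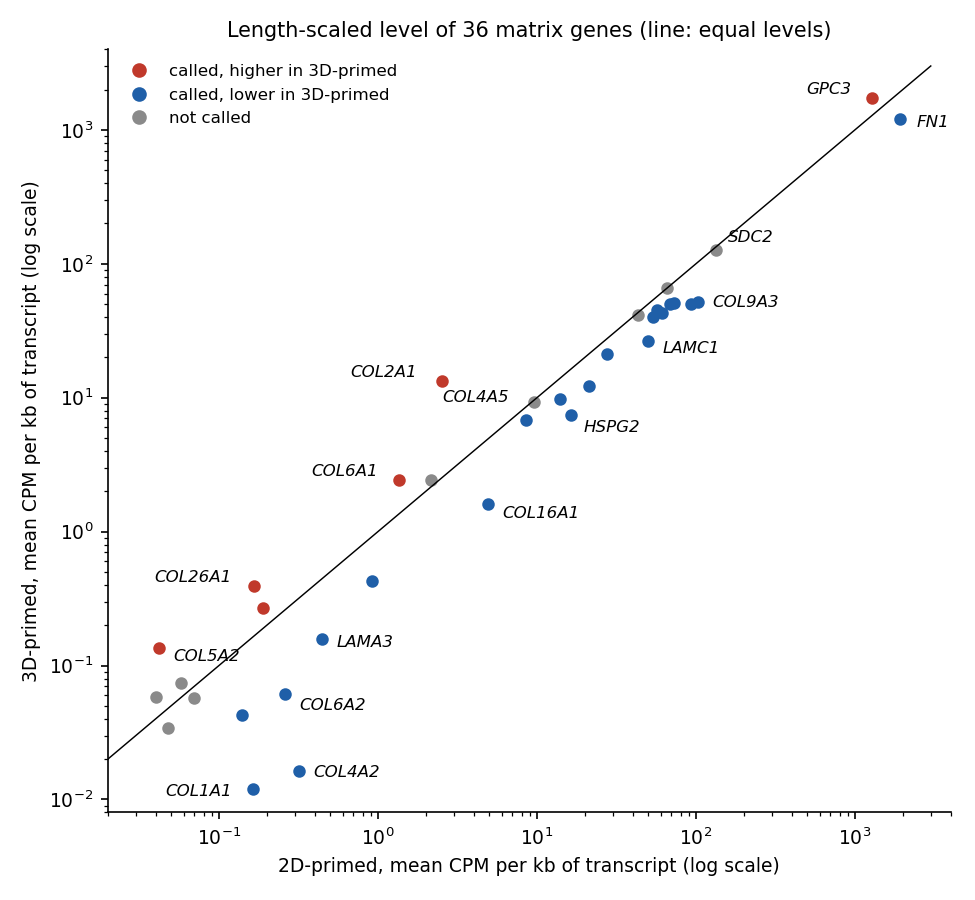
Mean level of the 36 tested matrix genes, in CPM per kb of transcript (both axes on a log scale), in 2D-primed (x) and 3D-primed (y) cells (n = 4 each; colours as above; line: equal levels). FN1 lies below the line and GPC3 above it at the top, and COL2A1 is the called gene farthest above the line.

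Ratios of partner genes within a library do not depend on scaling between libraries. Of 5 pairs computed, 4 are given with a two-sided exact permutation test, whose smallest possible p with 4 against 4 libraries is 0.0286, and 1 reached that p. The ratio of LAMB1 to LAMC1, per kb, was 1.05, 1.11, 1.11 and 1.09 in the 2D-primed and 1.41, 1.55, 1.44 and 1.61 in the 3D-primed libraries (exact p = 0.0286, adjusted over the 4 pairs 0.114). The ratio of COL6A1 to COL6A2 lay between 4.63 and 5.70 in the 2D-primed and between 23.8 and 195 in the 3D-primed libraries. This pair is given as a description without a test, since COL6A2 met the count limit through the 2D-primed group. COL4A5 to COL4A6 went from 4.42 ± 0.336 to 3.79 ± 0.370 (exact p = 0.0571, adjusted 0.114). SDC1 to SDC4 went from 0.752 ± 0.0334 to 0.922 ± 0.101 (exact p = 0.0857, adjusted 0.114). The beta chains LAMB2 and LAMB1 had ratios of 1.13 ± 0.0514 and 1.08 ± 0.127 (SD, n = 4, exact p = 0.371), with overlapping groups. No pair passed an adjusted p of 0.05. With 4 against 4 libraries, a pair could pass only if most of the 4 pairs reached the smallest possible p. The adjusted values thus give no verdict on a single pair.

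**Figure D4:**
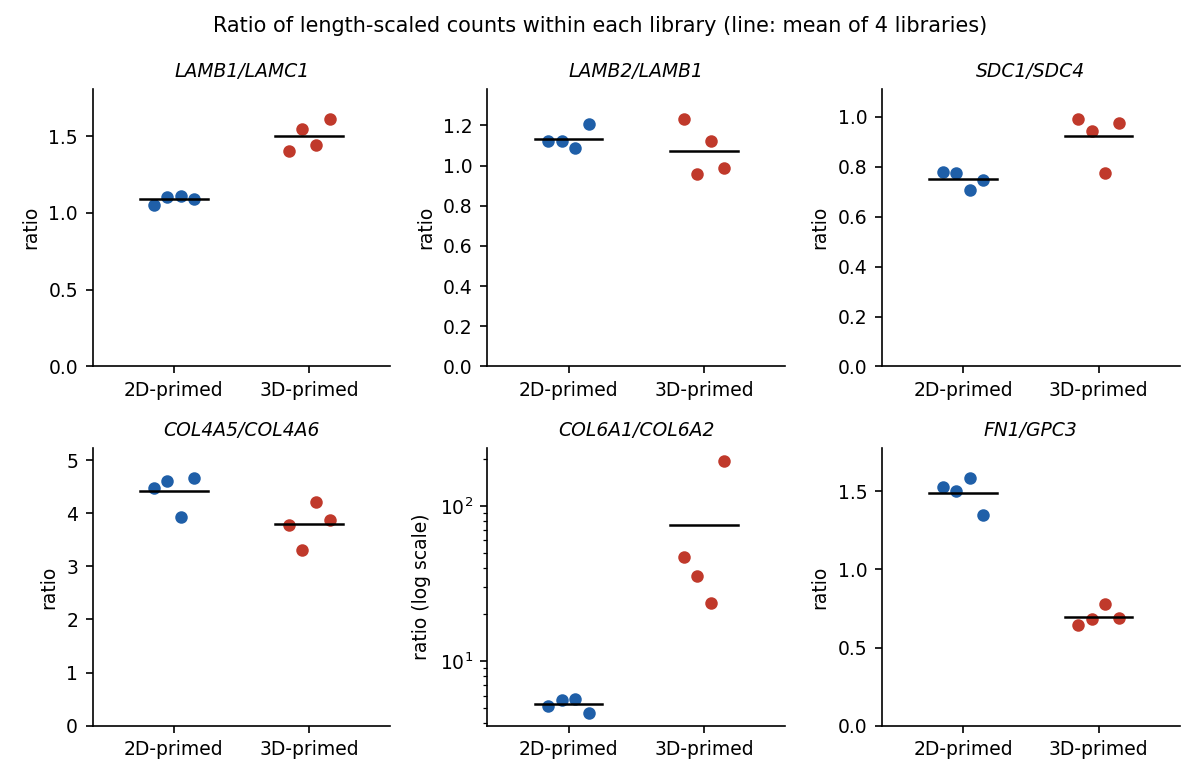
Ratio of length-scaled counts of 6 pairs of genes within each library (points: libraries; line: mean of 4; log axis for COL6A1/COL6A2 only). The groups are apart for LAMB1/LAMC1, COL6A1/COL6A2 and FN1/GPC3 and overlap for LAMB2/LAMB1, SDC1/SDC4 and COL4A5/COL4A6.

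The motifs marked in the printed stretches were looked for in the RefSeq promoter windows (from 250 bases before to 50 after a start) of all genes. On either strand, GGGCGG occurred in 25 of 30 windows of tested members, in 20 of 21 windows of those that fell (the printed ones included) and in 0 of 2 windows of those that rose, those of COL26A1 and FBN1, beside 65.2% of the windows of all tested genes and 45.0% of all windows. CCAAT was in 6 of 30 (34.8% of the windows of tested genes), TATAAA in 3 (6.43%), the TEAD-type motif GGAATG in 2 (11.6%) and the AP-1-type motif TGANTCA in 2 (5.2%). Windows are not genes: of those that fell, LAMB3 and COL18A1 have several windows and AGRN, COL9A3 and COL1A1 have none. The risers COL2A1, GPC3, COL6A1 and COL5A2 have none either, so members that fell and rose cannot be compared. The counts are small, and a match is only a match of letters.

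Genes that modify, cut or bind the same matrix were mostly lower too. The shares for proteases, receptors, other glycoproteins and heparan sulfate genes include scarce genes that met the count limit through a single group. Such a gene, when called, had to be the higher in that group, and the shares of all genes include such genes too. Of 27 tested genes for collagen maturation and crosslinking, 18 fell (66.7%, beside 31.6% of all genes tested) and 5 rose (18.5%, beside 32.4%), with a median log2 fold change of -0.45. LOXL3, a lysyl oxidase that crosslinks collagen, went from 47.2 ± 3.19 to 3.92 ± 1.2 CPM (SD, n = 4, log2 fold change -3.58, edgeR adjusted p = 5.8e-08). COLGALT1, which adds galactose to collagen, went from 199 ± 4.77 to 118 ± 2.74 CPM (-0.76, edgeR adjusted p = 8.4e-08), and PCOLCE2, an enhancer of procollagen cleavage, rose from 5.54 ± 0.393 to 19.2 ± 1.74 CPM (1.80, edgeR adjusted p = 7.9e-08). Of 20 matrix proteases and inhibitors, 13 (65%) passed, close to the 63.9% of all genes tested, and of these 11 fell (55%, beside 31.6%) and 2 rose (10%, beside 32.4%). Both sides of that balance were among them: the metalloprotease ADAM9 went from 266 ± 17.3 to 122 ± 7.35 CPM, and the inhibitors TIMP3 from 525 ± 11.5 to 242 ± 18.6, TIMP2 from 104 ± 6.15 to 43.1 ± 2.98 and TIMP1 from 21.4 ± 1.41 to 7.85 ± 1.47 CPM (edgeR adjusted p of 2.3e-06 or less).

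Of 12 tested collagen and laminin receptors, 9 fell (75%, beside 31.6% of all genes tested) and none rose (beside 32.4%), with a median log2 fold change of -0.54. Those that fell include a scarce gene that met the count limit through the 2D-primed group alone. ITGA2, a collagen-binding integrin subunit, went from 175 ± 9.74 to 85.5 ± 14.2 CPM (log2 fold change -1.04, edgeR adjusted p = 7.8e-06), and ITGA6, a laminin-binding one, from 196 ± 9.74 to 144 ± 6.70 CPM (-0.44, edgeR adjusted p = 2.0e-05). DAG1, the laminin receptor dystroglycan, went from 187 ± 7.73 to 119.5 ± 4.30 CPM (-0.65, edgeR adjusted p = 6.7e-07). The collagen-binding kinase DDR1 varied among the 2D-primed libraries, at 36.2, 29.5, 62.2 and 70.3 CPM, but all 4 lay above the 3D-primed 11.4, 8.81, 11.6 and 9.25 CPM (log2 fold change -2.27, SE 0.268, edgeR adjusted p = 3.5e-05).

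Of 31 other matrix glycoproteins and proteoglycans, 18 fell (58.1%, beside 31.6% of all genes tested) and 7 rose (22.6%, beside 32.4%). CCN1, a matricellular protein known as a target of YAP, was at 160.1, 151, 184 and 150.1 CPM in the 2D-primed and 10.4, 11.1, 15.3 and 10.4 CPM in the 3D-primed libraries (log2 fold change -3.77, SE 0.123, edgeR adjusted p = 1.5e-08). TGFBI, which binds collagens and integrins, went from 904 ± 48.1 to 343 ± 30.6 CPM (-1.40, edgeR adjusted p = 8.7e-08), and FBLN5, an elastic fibre protein, rose from 3.82 ± 0.434 to 13.3 ± 1.22 CPM (1.80, edgeR adjusted p = 2.3e-07). Of the other syndecans and glypicans with the heparan sulfate enzymes, 6 of 21 fell (28.6%) and 7 rose (33.3%), near the shares of all genes tested (31.6% and 32.4%). In that list GPC6 went from 124 ± 7.60 to 51.5 ± 0.998 CPM and SDC3 from 5.05 ± 0.997 to 1.69 ± 0.0727 CPM, while B3GALT6, an enzyme that builds the linker of heparan sulfate chains, rose from 22.4 ± 1.33 to 39.5 ± 2.72 CPM (SD, n = 4).

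**Figure D5:**
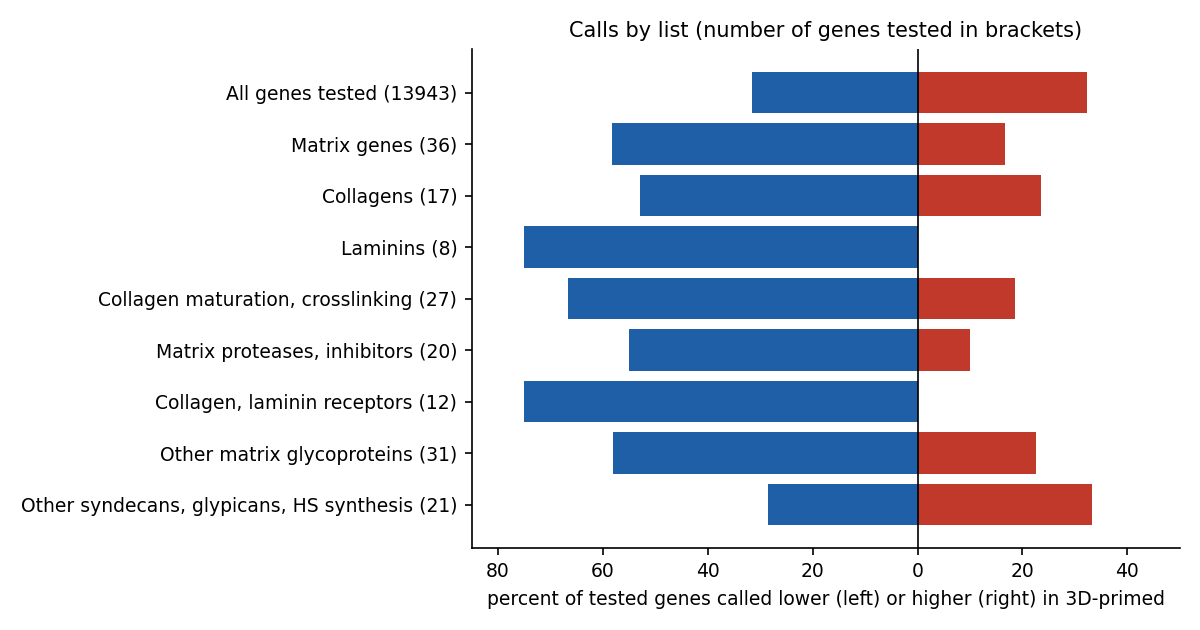
Percent of the tested genes of each list called lower (blue, left) or higher (red, right) in 3D-primed cells by edgeR at an adjusted p of 0.05 (number tested in brackets; HS: heparan sulfate). The matrix genes are called lower in 58.3% and higher in 16.7%, and all genes tested in 31.6% and 32.4%. These shares include scarce genes that met the count limit through a single group.

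Marker genes of hepatocytes and of other cell types were also read, as a description of RNA in this single cell line. All 16 hepatocyte markers were tested: 10 rose, beside 32.4% of all genes tested, and 5 fell, beside 31.6% (KRT8, KRT18, FOXA2, APOB and SERPINA1), with a summed level of 86470 ± 3032 CPM in the 2D-primed and 122293 ± 5593 CPM in the 3D-primed group (SD, n = 4) and ALB as the highest (26391 and 44035 CPM). Of 13 stellate cell and fibroblast markers only 3 were kept, of which PDGFRB rose (10.7 to 16.4 CPM) and ACTA2 and RELN were not called. The sum of the list was 889 ± 52.6 and 845 ± 87.9 CPM, nearly all of it RELN, and FAP, POSTN and THY1 were at 0 in every library. Endothelial markers summed to 13.1 ± 1.10 and 7.74 ± 1.68 CPM, led by EGFL7, with STAB2 and ERG at 0. Of the 5 tested, EGFL7 and CDH5 fell, VWF rose (1.11 to 1.71 CPM), and the other two were not called. Of 9 immune markers 4 were kept, led by LYZ (2168 and 2642 CPM). LYZ and CD14 rose and CD68 fell (72.7 to 34.4 CPM), and TYROBP, MARCO, C1QA and CD3E were at 0. Of 7 cholangiocyte markers 5 were tested and 5 fell, beside 31.6% of all genes tested, and the list went from a sum of 1062 ± 47.2 to 624 ± 59.3 CPM, with SOX9 the highest. The mitochondrial share of counts was 1.40 to 1.81% in the 2D-primed and 2.47 to 2.98% in the 3D-primed libraries. The part of either in the matrix result was not tested.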

How the data were processed

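RNA of 4 2D-primed and 4 3D-primed HepG2 cultures was measured. The authors deposited estimated counts per gene, written as whole numbers to a table for each library (Salmon against human cDNA, then tximport for gene totals). Whether they were scaled for transcript length is not given in the sources used here. Groups were taken from the labels, which do not say whether replicates were separate cultures, so p-values measure the spread between these libraries, which may be technical. Identifiers were matched without version to GENCODE 44 (34977 with a symbol), which gave positions and transcript lengths. The matrix members and lists were chosen with earlier results of these data known.

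Genes with 10 or more counts in 2 or more of 8 libraries were tested with edgeR 4.0.16 (TMM, quasi-likelihood, group as the only term, Benjamini-Hochberg over all genes tested, threshold 0.05). CPM are TMM-scaled. On simulated data with 200 of 13685 genes changed 2-fold, edgeR recovered 100% with 3.85% false calls. Alternatives were DESeq2 1.42.0, limma 3.58.1 (voom), other scalings and filters, a replicate block and each library left out. All members could be named. Values per library are given for members of 5 CPM or more, and of each other list the genes named are the 3 tested with the smallest p and, among those of 10 CPM or more, the one with the largest change. Marker genes are named from their own lists. Values per library of scarcer members and the FN1 to GPC3 ratio were added after the values were seen. Called members that met the count limit through 1 group alone, and the COL6A1 to COL6A2 pair, are given without a p-value, a choice made after their counts were seen. They stay in the counts of calls. Sequences are from the RefSeq promoter table (GRCh38.p14), which matched 51 of the 69 members and 25 of the 36 tested. The planned description of protein repeats was not made. Replicates of a group differed beyond sampling noise (chi-square per degree of freedom 6.32 to 17.4), and each library was kept as its own. Separate preparations of a single culture can differ in this way too, so these values cannot show that the cultures were separate.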

Additional observations from a re-analysis of the deposited data

Results flagged for a closer look

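Within each group, the highest and lowest library of each member with a mean of 5 CPM or more, and of the summed levels, were set against the others by Dixon's test. Of 64 groups looked at, 3 had a library apart, and chance gives about 1 in 20, or 3.2. NID1 stood at 401 CPM in 2D-primed replicate 2, above 374 to 378 CPM in the other libraries of its group. COL7A1 stood at 6.06 CPM in 3D-primed replicate 3, above 2.94 to 3.45 CPM in the others. The summed level of all members but FN1 was 7801 CPM in 2D-primed replicate 2, above 7334 to 7393 CPM in the others.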

How the results depend on the processing

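Of 53 genes followed, 45 kept their call and direction under every alternative in which they were tested, and 8 did not. When 10 counts were required in all libraries, 26 members were tested, and COL1A1, COL4A2, COL6A2, LAMB3, COL5A2 and COL26A1 were lost as untested, with 17 members called lower in place of 21 and 4 higher in place of 6. Of 27 members called, 27 were called with the replicate number as a block, which changed no member's call (8490 genes called in all, beside 8916). Samples of one number showed little common deviation (correlations of -0.0439, -0.0146, 0.0880 and -0.00625), and 1 of the 4 correlated best with its own number. Such values cannot exclude a shared day or culture, and the labels do not say what the number marks. Cell surface proteoglycans called lower numbered 2 under DESeq2 in place of 1, through SDC2. Collagens called higher numbered 2 in place of 4 when 10 counts were required in all libraries, through COL5A2 and COL26A1. Leaving out single libraries gave 0 to 1 interstitial glycoproteins called higher (0 without 3D-primed replicate 2 or 4, through FBN1). It gave 0 to 1 laminins called higher (1 without 2D-primed replicate 4, LAMC3). LAMC3 then met the count limit through the 3D-primed group alone, where a called member had to be the higher, so this call is not read as a result. Members that were not called and sit near 0 changed sign: the log2 fold change of NID1 was 0.0266 with total counts, 0.0485 with the upper quartile, 0.00359 with no filter and -0.0225 to 0.0212 without single libraries. SDC1 was at 0.00492 and COL4A5 at 0.00324 with the upper quartile, and SDC1 ran from -0.0745 to 0.000756 without single libraries. Depth limits the members under 1 CPM, whose folds rest on few counts, and the cause of these changes was not tested.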
